A study of Mus musculus with 18 samples.

Results

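The immediate early genes described here are 9 protein-coding genes, Fos, Jun, Junb, Egr1, Klf4, Klf6, Ier2, Btg2 and Dusp1, taken from the 10597 genes of the deposited tables by their mouse symbols. All 9 were found, and all 9 were above the minimum mean of 10 normalized reads in RNA, in ribosome footprints and in both assays together. They were followed in mORF4/NBDY knockout (KO) left ventricles, hearts 6 to 10, and in wild-type (WT) left ventricles, hearts 1 to 4. All 9 mice were untreated C57BL/6 males, 20 weeks old and kept under normal housing. The labels do not say how the knockout was made. Each heart gave 1 poly-A RNA library, which measures transcript level, and 1 ribosome footprint library, which counts the mRNA fragments held by translating ribosomes, so the comparison asks what loss of the NBDY microprotein, a known partner of the mRNA decapping machinery, does to transcripts and to their occupancy by ribosomes.

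Immediate early genes are transcribed within minutes of a stimulus, without the need for new protein synthesis, from promoters held ready by serum response factor, its ternary complex partners and CREB-type factors. Their mRNAs are short-lived, many of them through AU-rich elements that recruit deadenylation and decapping enzymes. In the heart they are known to respond to mechanical load and to neurohumoral signals.

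Before the members, the libraries were checked. Nbdy, the targeted gene, averaged 14.3 ± 3.46 normalized footprint reads in KO hearts and 183 ± 116 in WT hearts (SD, n = 5 and 4), a difference of -3.45 on the log2 scale with a limma adjusted p of 0.0191. Its RNA averaged 73.5 ± 10.7 normalized reads in KO hearts and 111 ± 7.10 in WT hearts, so transcript remained in the knockout. RNA libraries held 15.8 to 20.2 M reads (M is 1e6) in KO hearts and 11.2 to 12.4 M in WT hearts. The KO RNA totals rest on a step between low values that could not be checked independently. Genotype and RNA depth cannot be told apart, and the labels name no batch. Footprint libraries held 22.9 to 40.8 M reads in KO hearts and 6.67 to 36.7 M in WT hearts, where heart 2 was the shallowest. All 9 ventricular cardiomyocyte markers (such as Myh6 and Myl2) were present, in sums of 1790215 to 2013431 normalized RNA reads in KO hearts and 1961009 to 2286127 in WT hearts.

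Promoter sequence is shown for the genes on which the results below turn: Jun, Btg2 and Dusp1, whose RNA differed between genotypes, and Fos, whose level varied widely between hearts. Each line gives the 250 bases upstream of the RefSeq gene start on GRCm38.p6, read 5′ to 3′ on the gene's own strand. Capitals mark TGACGTCA (the cAMP response element), its part TGACG, and the AP-1-like TGACATCA, on either strand.
Fos promoter, chr12:85473640-85473889 (+ strand): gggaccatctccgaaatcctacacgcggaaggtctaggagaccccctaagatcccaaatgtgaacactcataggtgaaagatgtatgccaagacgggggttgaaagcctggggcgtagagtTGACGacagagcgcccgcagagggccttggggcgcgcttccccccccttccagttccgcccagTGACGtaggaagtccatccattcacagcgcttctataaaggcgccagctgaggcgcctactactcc
Jun promoter, chr4:95052223-95052472 (− strand): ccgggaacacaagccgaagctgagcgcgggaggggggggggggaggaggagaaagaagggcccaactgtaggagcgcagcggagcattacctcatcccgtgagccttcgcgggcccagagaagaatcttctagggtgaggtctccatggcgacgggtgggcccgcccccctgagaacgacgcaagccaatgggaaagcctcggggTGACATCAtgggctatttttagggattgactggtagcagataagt
Btg2 promoter, chr1:134079156-134079405 (− strand): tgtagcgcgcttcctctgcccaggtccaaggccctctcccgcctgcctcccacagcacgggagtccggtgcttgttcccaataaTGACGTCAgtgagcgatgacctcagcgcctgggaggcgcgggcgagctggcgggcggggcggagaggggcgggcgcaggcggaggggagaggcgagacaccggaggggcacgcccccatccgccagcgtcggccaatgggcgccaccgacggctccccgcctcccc
Dusp1 promoter, chr17:26508473-26508722 (− strand): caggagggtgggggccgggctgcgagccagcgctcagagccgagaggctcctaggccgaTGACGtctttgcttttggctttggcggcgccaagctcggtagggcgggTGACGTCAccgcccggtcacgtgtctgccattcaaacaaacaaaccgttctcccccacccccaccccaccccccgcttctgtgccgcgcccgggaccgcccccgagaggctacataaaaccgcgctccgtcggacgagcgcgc

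The other 5 genes lie on chromosomes 8 (Junb and Ier2), 18 (Egr1), 4 (Klf4) and 13 (Klf6). Promoters of 7 of the 9 genes, all but Egr1 and Ier2, were searched on both strands. The motif TGACGTCA was present in 2 of them, Btg2 and Dusp1, against 1.55% of 32851 RefSeq promoters of the same length. TGACG, which every TGACGTCA holds on both strands, was present in 5 of the 7, namely Btg2, Klf4, Junb, Fos and Dusp1, against 17.8% of promoters. TGACATCA was present in Jun and Klf6, against 2.93% of promoters. CCAAT was present in Btg2, Jun, Junb and Klf6, against 33.8% of promoters. TATAAA was present in Fos alone, against 12.4%. The strict AP-1 site TGACTCA and the CArG box, the core of the serum response element, were in 0 of these 7 windows, against 4.46% and 1.47% of promoters. The background promoters were not selected by gene type, whereas the 9 genes are all protein-coding. A match of letters is not evidence of binding. The windows are short, so a motif farther upstream would be missed, and 0 of 7 does not speak for Egr1 or Ier2.

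In RNA, 1 of the 9 genes rose in the knockout (Btg2) and 2 fell (Jun and Dusp1), by limma at an adjusted p below 0.05 over 10580 genes. Of all genes tested, 49.4% passed, 24.3% upwards and 25.1% downwards, so 3 of 9 is no larger a share than the background. At an unadjusted p below 0.05 there were 4 of 9, against 55.7% of all genes, and 6 of 9 signs were positive, against 51.1%. The median log2 fold change of the 9 genes was 0.11, against 0.01 over all genes tested. In whole ventricle, fewer cells of a type and less RNA per cell cannot be told apart.

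**Figure D1:**
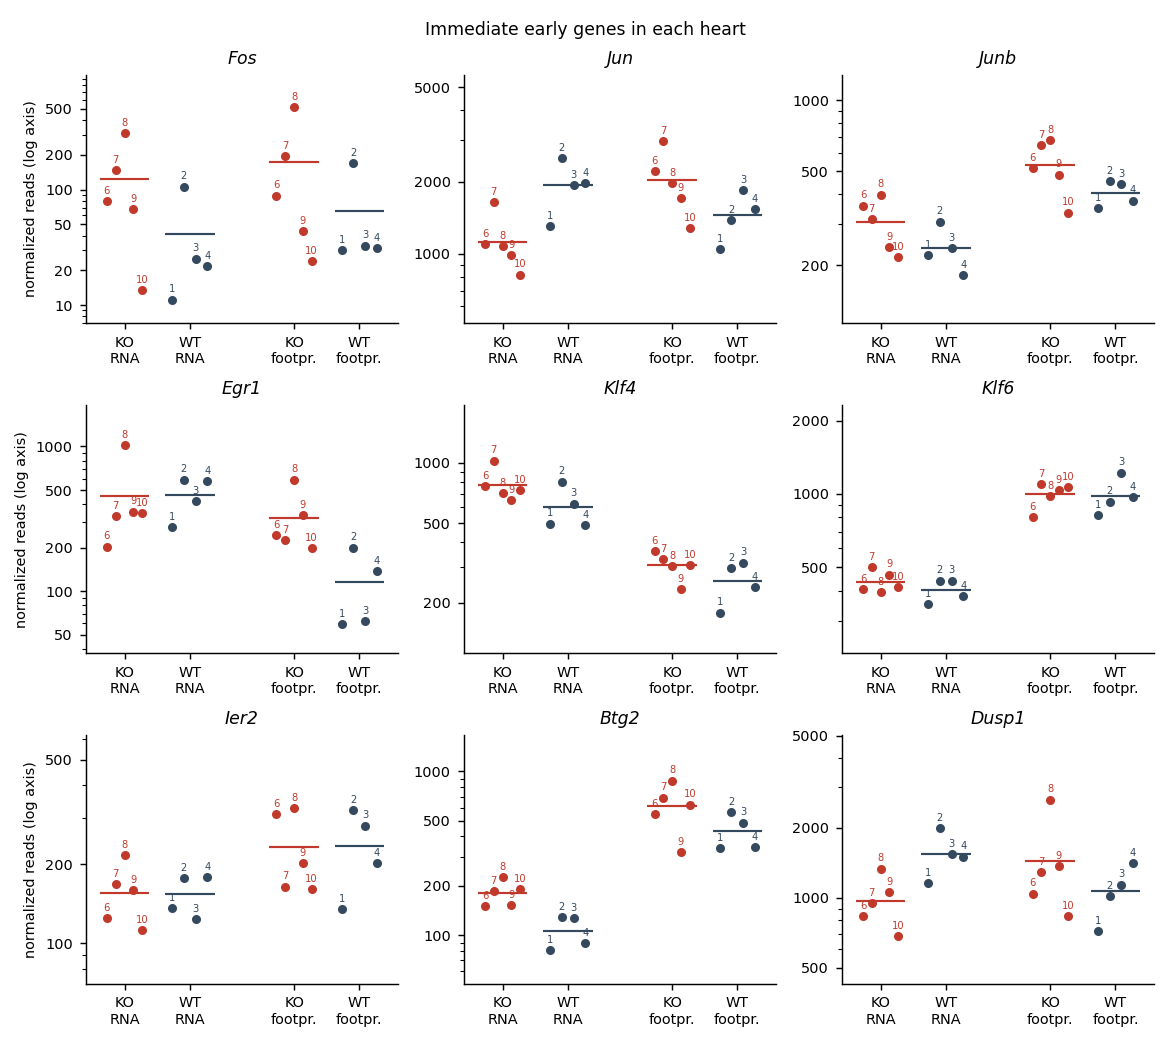
Normalized reads (log axis) of each gene in RNA and footprints, 1 point per heart with its number, KO hearts (red) left of WT hearts (blue), and a line at the arithmetic mean. Btg2 RNA is higher in all 5 KO hearts than in all 4 WT hearts, while Fos spans 13.5 to 306 normalized RNA reads within the KO hearts.

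The AP-1 members come first. Fos is a leucine-zipper protein that binds DNA as a dimer with a Jun protein. Fos RNA was 79.9, 147, 306, 67.9 and 13.5 normalized reads in KO hearts 6 to 10, against 11.1, 106, 25.3 and 21.6 in WT hearts 1 to 4. The highest value, in KO heart 8, was 27.5 times the lowest, in WT heart 1, and the genotypes overlapped through KO heart 10 and WT heart 2. Means were 123 ± 113 in KO hearts and 41.0 ± 43.7 in WT hearts, and log2 expression differed by 1.46 ± 0.79 (SE), with a limma adjusted p of 0.148. Only 23 of 10580 genes had a larger fold change. Without WT heart 2 it was 2.08 (adjusted p = 0.0496) and without KO heart 10 it was 2.09 (adjusted p = 0.0191), so the call depends on single hearts. In WT heart 1 the value stands for 8 reads.

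Jun, the main partner of Fos, went the other way. Jun RNA was 1100.0, 1640.3, 1078, 987 and 816 normalized reads in KO hearts 6 to 10, against 1307, 2519.9, 1933 and 1976 in WT hearts 1 to 4. KO heart 7 lay above WT heart 1, and the other 4 KO hearts were below every WT heart. Jun RNA thus fell, with a log2 fold change of -0.78 ± 0.20 (SE) and an adjusted p of 0.00679. Junb, a Jun family member with weaker transactivation, averaged 304 ± 77.3 normalized RNA reads in KO hearts and 236 ± 52.0 in WT hearts, with a log2 fold change of 0.35 ± 0.19 and no call (adjusted p = 0.147).

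Among the zinc-finger transcription factors no RNA level passed the test. Egr1, an activator induced by growth factors, stood at 204, 329, 1023, 355 and 346 normalized RNA reads in KO hearts 6 to 10, against 278, 589.6, 420.3 and 575 in WT hearts 1 to 4. KO heart 8 was far above its group and KO heart 6 was the lowest of all 9, so the log2 fold change of -0.21 ± 0.38 had no settled sign (adjusted p = 0.665). It was 0.02 without KO heart 6. Klf4, a Krüppel-like factor of endothelial and smooth muscle cells among others, averaged 775 ± 145 normalized reads in KO hearts and 604 ± 148 in WT hearts (0.37 ± 0.16, adjusted p = 0.0705). It passed without WT heart 2 (0.52, adjusted p = 0.0120) and after quantile normalization (0.43, adjusted p = 0.0396). Klf6, the least variable of the 9 genes, averaged 436 ± 44.7 normalized reads in KO hearts and 404 ± 43.8 in WT hearts (0.11 ± 0.09, adjusted p = 0.348).

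The remaining 3 genes encode a regulator of transcription (Ier2), an antiproliferative protein that recruits the CCR4-NOT deadenylase to mRNA (Btg2) and a phosphatase that switches off MAP kinases (Dusp1). Btg2 RNA was 150.0, 185, 225, 152 and 191 normalized reads in KO hearts 6 to 10, against 80.7, 129, 127 and 89.3 in WT hearts 1 to 4. All KO hearts were above all WT hearts, a pattern shown by 19.8% of all genes tested. None of the 9 genes had all KO hearts below all WT hearts in RNA, against 20.6% of genes. The rise was 0.77 ± 0.17 (SE) on the log2 scale, with an adjusted p of 0.00275, and 3.55% of genes had a larger fold change. Dusp1 RNA was 834, 953, 1336, 1058 and 684 normalized reads in KO hearts 6 to 10, against 1159.5, 1994, 1546 and 1506 in WT hearts 1 to 4. KO heart 8 overlapped WT heart 1, and the other KO hearts were below all WT hearts, giving -0.68 ± 0.18 (adjusted p = 0.00899). Ier2 averaged 156 ± 40.6 normalized RNA reads in KO hearts and 154 ± 27.8 in WT hearts, with a log2 fold change whose SE was 0.19 and whose size was below 0.01.

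In ribosome footprints 0 of the 9 genes passed the limma test, against 0.02% of all 9976 genes tested. At an unadjusted p below 0.05 there were 2, Egr1 and Jun, against 5.06% of all genes. The edgeR and DESeq2 tests on whole footprint reads called 0 of the 9 as well. The sign was positive for 8 of 9 genes, against 49.5% of all genes. No gene of the 9 had KO hearts all above WT hearts (0.772% of all genes) or all below them (0.832%). The median log2 fold change of the 9 was 0.35, against -0.0027 over all genes. These genes share their hearts and move together, as described below, so their signs are not separate observations.

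Egr1 had the clearest footprint difference of the 9. Its footprints were 245, 226, 589.8, 337 and 199 normalized reads in KO hearts 6 to 10, against 59.4, 200.2, 62.3 and 138 in WT hearts 1 to 4. The groups met only where KO heart 10, the lowest KO heart, fell just under WT heart 2. Means were 319 ± 159.8 in KO hearts and 115 ± 67.4 in WT hearts, a log2 fold change of 1.54 ± 0.38. Its unadjusted p of 0.000900 ranked 9 among 9976 genes, and the adjusted p was 0.851 by limma. Over the alternatives the adjusted p ranged from 0.0774 to 0.958, and the authors' deposited table gives an adjusted p of 0.0828. The libraries held 40 to 679 Egr1 footprint reads.

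For the AP-1 genes the footprints were again widely spread. Fos footprints were 88.6, 196, 522, 43.4 and 24.0 normalized reads in KO hearts 6 to 10, against 29.7, 169, 32.7 and 31.1 in WT hearts 1 to 4. As in RNA, KO heart 8 and WT heart 2 were the highest of their genotypes and KO heart 10 was the lowest KO heart. The log2 fold change was 1.04 ± 0.74 (adjusted p = 0.854). Jun footprints were 2225, 2974, 1978, 1705 and 1278 normalized reads in KO hearts 6 to 10, against 1046, 1381, 1848 and 1534 in WT hearts 1 to 4. The groups overlapped, and the difference of 0.46 ± 0.21 had an unadjusted p of 0.0418 (adjusted p = 0.851). Its sign is opposite to that of Jun RNA. Junb averaged 531 ± 137 normalized footprint reads in KO hearts and 405 ± 51.4 in WT hearts (0.35 ± 0.21, adjusted p = 0.851).

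For the other genes, Btg2 averaged 612 ± 204 normalized footprint reads in KO hearts and 434 ± 111 in WT hearts (0.46 ± 0.25, adjusted p = 0.851). Dusp1 averaged 1438 ± 708 in KO hearts and 1072 ± 285 in WT hearts (0.35 ± 0.26, adjusted p = 0.854), also with the sign opposite to its RNA. Klf4 averaged 308 ± 46.6 in KO hearts and 258 ± 62.4 in WT hearts. Klf6 averaged 997 ± 118 in KO hearts and 984 ± 171 in WT hearts, and Ier2 averaged 233 ± 80.0 in KO hearts and 234 ± 83.0 in WT hearts. For these 3 genes the log2 fold change was 0.27 ± 0.22 (Klf4), 0.03 ± 0.15 (Klf6) and -0.0024 ± 0.30 (Ier2).

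**Figure D2:**
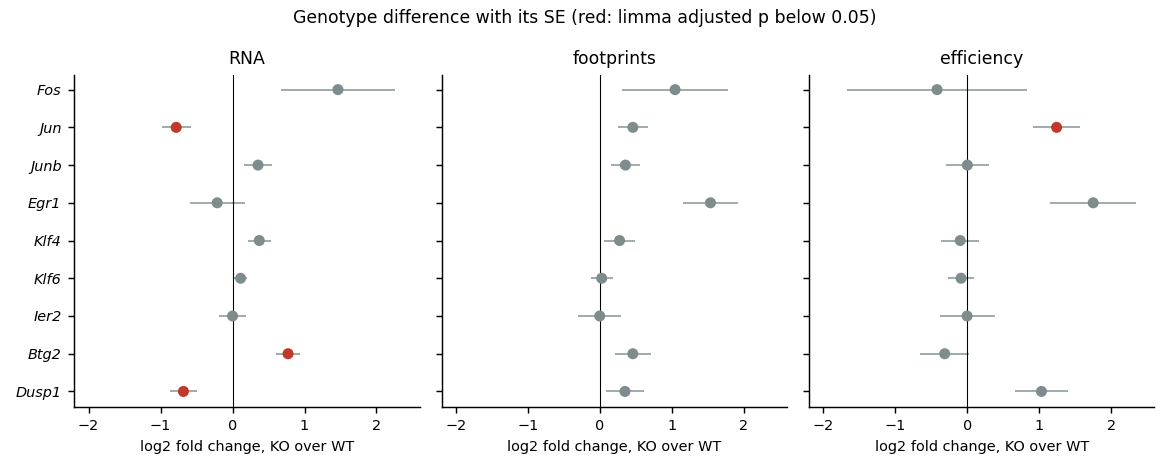
Log2 fold change of KO over WT hearts for each gene, as a point with its SE as a bar, in RNA, footprints and efficiency (n = 5 and 4 hearts). The efficiency fit has no heart term. Red points passed limma at an adjusted p below 0.05, namely Jun, Btg2 and Dusp1 in RNA and Jun in efficiency, and Egr1 has the largest footprint and efficiency values without passing.

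Translational efficiency is the footprint signal of a heart divided by its own RNA signal. A difference in RNA without one in footprints therefore moves efficiency the opposite way. By limma, 49.4% of all genes passed in RNA and 0.02% in footprints, so efficiency calls are not separate from RNA calls. Genotype and RNA depth cannot be told apart here either. Because the 2 assays are scaled separately, only differences between hearts of 1 gene are read from efficiency. The test was the interaction of genotype and assay in a model of all 18 libraries. It had no heart term, so the 2 libraries of a heart were not paired in it. Fits with the heart as a replicate block are given beside it for single genes below. Of the 9 genes, 1 rose (Jun) and 0 fell at a limma adjusted p below 0.05, against 14.4% of 9974 genes, 7.83% upwards and 6.55% downwards. All KO hearts were above all WT hearts for 3 of the 9 (Jun, Egr1 and Dusp1), against 9.55% of all genes, and all below for 0 of 9, against 8.73%. At an unadjusted p below 0.05 there were 3 of 9, against 27.8% of genes, and 4 of 9 signs were positive, against 48%. The median log2 fold change was -0.0024 over the 9 genes and -0.02 over all genes.

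Jun efficiency was 2.02, 1.81, 1.83, 1.73 and 1.57 in KO hearts 6 to 10, against 0.801, 0.548, 0.956 and 0.776 in WT hearts 1 to 4. The lowest KO heart was above the highest WT heart. The rise was 1.24 ± 0.33 (SE) on the log2 scale by limma, with an adjusted p of 0.0150, and 0.912% of genes had a larger fold change. Without WT heart 2 it was 1.09 and no longer passed (adjusted p = 0.0579). With the heart as a replicate block and all hearts kept, the SE was 0.15 (limma adjusted p = 9.31e-05). The authors' deposited table, which gives WT over KO, has -1.23 for Jun (adjusted p = 0.00211).

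Egr1 efficiency was 1.21, 0.686, 0.577, 0.948 and 0.574 in KO hearts 6 to 10, against 0.213, 0.340, 0.148 and 0.240 in WT hearts 1 to 4. The groups were apart, and the log2 fold change of 1.75 ± 0.60 just missed the threshold (limma adjusted p = 0.0574). It passed with the heart as a replicate block (adjusted p = 0.000669), without KO heart 8 (adjusted p = 0.0187) and at a minimum mean of 50 (adjusted p = 0.0495). In the authors' deposited table it did not (WT over KO -1.50, adjusted p = 0.136).

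Dusp1 efficiency was 1.25, 1.36, 1.98, 1.30 and 1.22 in KO hearts 6 to 10, against 0.620, 0.512, 0.737 and 0.934 in WT hearts 1 to 4. Every KO heart was above every WT heart, with a log2 fold change of 1.03 ± 0.37 (limma adjusted p = 0.0728). With the heart as a replicate block the adjusted p was 0.00151, and the authors' deposited table has -1.06 for WT over KO (adjusted p = 0.0313). With that block 3 of the 9 genes passed, all upwards, against 18.6% of all genes and 9.92% upwards.

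The other 6 genes showed small or uncertain differences in efficiency. Fos averaged 1.31 ± 0.465 in KO hearts and 1.75 ± 0.626 in WT hearts, with a log2 fold change of -0.42. Its SE was 1.26 in the fit without a heart term (adjusted p = 0.872) and 0.45 with the heart as a replicate block (adjusted p = 0.557). Btg2 averaged 3.33 ± 0.721 in KO hearts and 4.07 ± 0.273 in WT hearts (-0.31 ± 0.34). Klf4 and Klf6 differed by -0.10 ± 0.26 and -0.09 ± 0.18. Junb averaged 1.75 ± 0.278 in KO hearts and 1.75 ± 0.266 in WT hearts, and Ier2 averaged 1.53 ± 0.565 in KO hearts and 1.55 ± 0.597 in WT hearts.

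**Figure D3:**
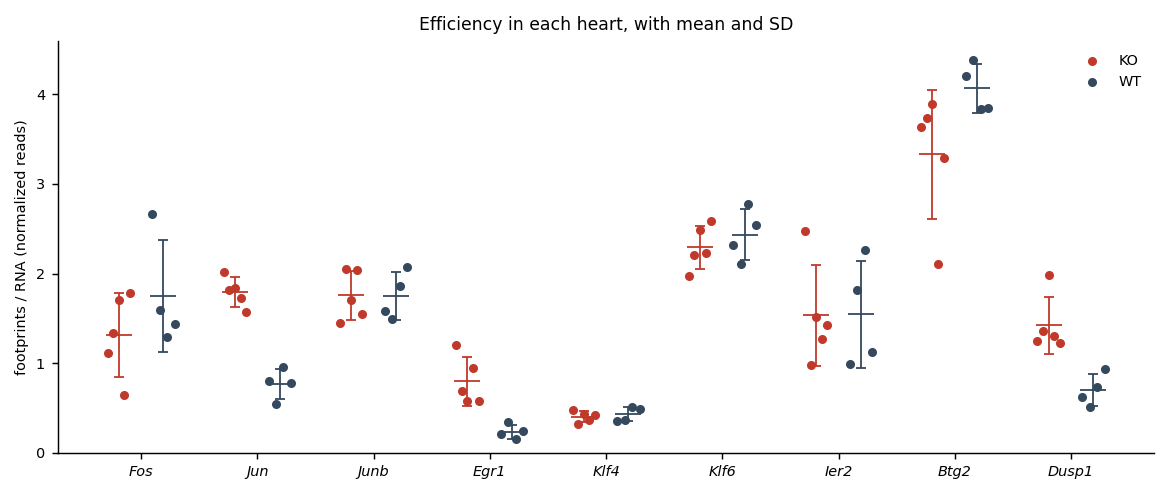
Footprints over RNA (ratio of normalized reads) in each heart, KO (red) left of WT (blue), with the mean as a line and the SD as bars. For Jun, Egr1 and Dusp1 the KO points lie above all WT points, and for the other 6 genes the genotypes overlap.

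Several of these genes varied widely between hearts of the same genotype, more clearly in RNA than in footprints. The SD of Fos RNA within genotypes was 1.51 on the log2 scale, larger than that of 99.8% of 10580 genes, whose median was 0.140. Egr1 RNA was above 99.1% of genes, while Klf6 RNA was near the middle (54.9%). The remaining genes lay between Btg2 (87.6%) and Jun (93.8%) in RNA. In footprints, where the median SD was 0.298, Fos was above 97.2% of genes, Egr1 above 91.3% and Klf6 above 24.8%. The remaining genes lay between Klf4 (50.3%) and Dusp1 (83.5%), with Junb at 57.1% and Jun at 70.8%. Fos had 21 to 601 footprint reads per library, and the part of counting error in its spread was not tested.

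Hearts tended to deviate in the same direction in both assays. After centring each genotype on its mean, the log2 RNA and footprint signals of Fos had a Pearson r of 0.940 and a Spearman rho of 0.950 over the 9 hearts, and r was 0.896 without the 2 hearts farthest from the median in RNA. For Ier2, the lowest of the 9 genes, r was 0.313, and it was -0.167 without the 2 farthest hearts. The median over the 9 genes was 0.786, against 0.249 over all 9974 genes. Those genes were not matched to the 9 in level or in spread between hearts, which was large for most of the 9 in RNA. The 2 libraries of a heart share the tissue but were sequenced separately, and no p is given.

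The genes also varied with each other. Of the 36 pairs, 35 had a positive r in RNA, with a median of 0.520, and 33 in footprints, with a median of 0.443. Over all pairs of tested genes, 50.01% were positive in RNA and 49.9% in footprints, with medians of 0.0001 and -0.0015. Fos and Dusp1 had the highest r in RNA (0.911), and Fos and Junb in footprints (0.867). The 3 negative pairs in footprints were Klf6 with Egr1, Fos and Ier2. The values of a heart share 1 library and 1 size factor.

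The hearts differed in how many of the 9 genes lay above the mean of their genotype. In RNA the number was 3, 8, 6, 3 and 1 of 9 in KO hearts 6 to 10, against 0, 9, 6 and 3 of 9 in WT hearts 1 to 4. In footprints it was 4, 6, 8, 3 and 3 of 9 in KO hearts 6 to 10, against 0, 6, 7 and 3 of 9 in WT hearts 1 to 4. KO hearts 7 and 8 and WT hearts 2 and 3 were thus above the mean for most of the genes in both assays. KO hearts 9 and 10 and WT hearts 1 and 4 were above it for few of them. KO heart 6, with 3 of 9 in RNA and 4 of 9 in footprints, was above it for a minority.

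**Figure D4:**
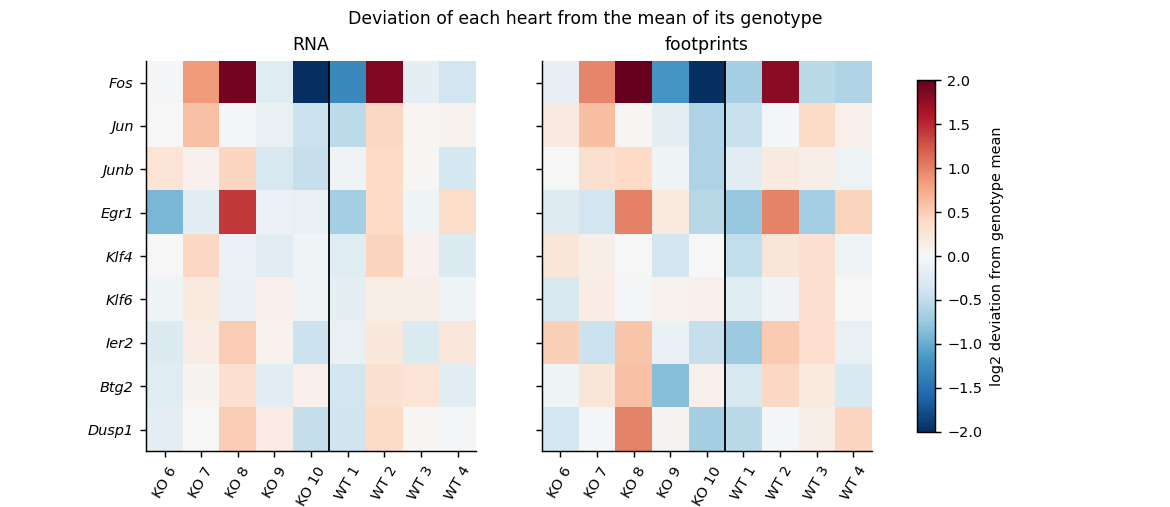
Deviation of each gene (rows) in each heart (columns) from the mean of its genotype, in log2 normalized reads, for RNA and footprints, with KO hearts left of WT hearts and the colours ending at 2 above and below the mean. Fos is red in KO heart 8 and WT heart 2 and blue in KO heart 10 and WT heart 1 in both assays.

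The genes whose pattern over the 9 hearts was most like the mean of the 9 standardized genes were then ranked. In RNA they included Ecm2, an extracellular matrix protein (r = 0.967), Nol12, a nucleolar protein (0.956), Kdm2a, a histone demethylase (0.948), and Nab1, a corepressor that binds Egr proteins (0.910), among 10153 genes. In footprints they were Bmyc (0.950), Hook2 (0.940), Zfp36, which binds AU-rich elements and is itself an immediate early gene (0.940), the haemoglobin chain Hbb-bs (0.928) and Tyw5 (0.928), among 9413 genes. Hook2 lies 10027 bases from Junb on chromosome 8. With 9 hearts and so many genes, high values of r arise easily, and no p is given.

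Other inducible genes were read beside the members, against shares of all genes of 24.3% higher and 25.1% lower in RNA, 0.02% called in footprints, and 7.83% higher and 6.55% lower in efficiency. Of 13 genes listed as other inducible transcription factors and tested in RNA, 3 rose, 2 fell and 8 did not pass. The median log2 fold change was -0.11, and 5 of 13 passed against 49.4% of all genes. Whether each listed gene is inducible in these hearts was not tested. Jund, the third Jun family member, averaged 1145 ± 91.7 normalized reads in KO hearts and 586 ± 65.8 in WT hearts (0.97, limma adjusted p = 4.34e-06), a sign opposite to Jun. Maff, a small Maf protein, fell by 1.31, while Hes1 and Klf2 rose by 0.46 and 0.67 on the log2 scale. In footprints 0 of 13 passed by limma, also 0 at an unadjusted p below 0.05. In efficiency Jund alone passed, downwards (-1.05, adjusted p = 0.00730).

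Of 28 other inducible regulators and secreted proteins tested in RNA, 6 rose, 6 fell and 16 did not pass, with a median of 0.07, so 12 of 28 passed against 49.4% of all genes. Rhob, a small GTPase, rose by 0.75, and Btg1, the paralogue of Btg2, rose by 1.05 (adjusted p = 0.000902). Zfp36l1, an mRNA decay factor, fell by 0.59, and the kinase Sgk1 fell by 0.57. In footprints 0 of 27 passed, with 1 at an unadjusted p below 0.05. In efficiency 4 of 27 rose, among them Zfp36l1 (0.99), Sgk1 (0.64) and Tob1 (0.43), and Rhob fell by 0.58. For Zfp36l1, Sgk1 and Rhob the sign was opposite to that of their RNA.

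Of 26 upstream kinases and transcription factors tested in RNA, 7 rose, 11 fell and 8 did not pass, with a median of -0.19, so 18 of 26 passed against 49.4% of all genes. Map2k2, a kinase of the ERK cascade, rose by 0.93 ± 0.07 on the log2 scale (adjusted p = 1.29e-06). Atf2 fell by 0.75, Mapk8, which encodes the Jun kinase JNK1, fell by 0.63, and Mkl2 (Mrtfb), a coactivator of serum response factor, fell by 0.62. In footprints 0 of 25 passed, with 2 at an unadjusted p below 0.05. In efficiency 7 of 25 rose, among them Srf (0.98), Mkl2 (0.68) and Elk4 (0.63), and 3 fell, among them Map2k2 (-0.99), so 10 of 25 passed against 14.4% of all genes.

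Of 15 genes of AU-rich and inducible mRNA decay tested in RNA, 2 rose and 2 fell, against 24.3% and 25.1% of all genes. Cnot7, a CCR4-NOT deadenylase, fell by 0.50 (limma adjusted p = 0.000153) and Hnrnpd by 0.21, while Edc4, a decapping scaffold, rose by 0.24 and Khsrp by 0.22. In footprints and in efficiency 0 of 15 passed by limma, with 2 in footprints and 0 in efficiency at an unadjusted p below 0.05. Of 10 AP-1 and bZIP partners, 0 rose and 4 fell in RNA, so 4 of 10 passed against 49.4% of all genes. Atf2, Maff and Nfe2l2 (-0.37) were among those that fell. In footprints 0 of these 10 passed, also 0 at an unadjusted p below 0.05, and in efficiency Nfe2l2 alone rose (0.46).

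Among the other marker sums, only those of the list named skeletal muscle, and of endothelium in RNA, separated the genotypes. The sum of 10 endothelial markers was 16290 to 18440 normalized RNA reads in KO hearts and 19418 to 22370 in WT hearts, without overlap. Of these 10 genes, 3 rose and 5 fell, against 24.3% and 25.1% of all genes tested. All KO hearts were below all WT hearts for 20.6% of single genes in RNA and 0.832% in footprints. Of the skeletal muscle list, 4 of 6 genes were in the tables (Myh1, Myh2, Myh4 and Acta1). They summed to 37773 to 53636 normalized RNA reads in KO hearts and 68393 to 108252 in WT hearts. In footprints the sums were 14651 to 37448 in KO hearts and 44729 to 82501 in WT hearts. Of these 4 genes, 3 fell in RNA, against 25.1% of all genes, while in footprints 0 passed and 2 had a positive sign. Acta1 is not confined to skeletal muscle, so these sums do not measure skeletal muscle cells. Endothelial sums overlapped in footprints. Sums of atrial, fibroblast, smooth muscle, macrophage and erythrocyte markers overlapped between genotypes in both assays, and no marker present was at 0 in all hearts. Their part in the results on the immediate early genes was not tested.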

How the data were processed

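RNA and footprints of 9 hearts gave 18 libraries. The submitters' processing notes name the tools HTSeq, DESeq2 and STAR 2.7.1a and the build GRCm38 (mm10) without saying what each did, and per the labels' protocols the RNA kit was TruSeq v2, which does not mark strand. No RefSeq gene overlaps any of the 9 genes on GRCm38.p6. The authors deposited a read signal per library, which the values show to be gene counts divided by a size factor per library, except in KO RNA. There the step between low values could not be checked, so the same form is assumed. Deposited log2 fold changes and p-values of the authors are quoted only where named. The deposited efficiency fold change runs WT over KO, opposite in sign to the one fitted here for 95.3% of genes. The 9 deposited per-heart efficiency columns were not used, and efficiency was recomputed. Mouse symbols were found for 10560 of 10597 gene IDs.

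Genes with a mean of at least 10 were fitted with limma 3.58.1 (R 4.3.3) with trend on log2(value + 1), a scale that understates changes of low genes, with Benjamini-Hochberg adjustment over all genes and a threshold of 0.05. Efficiency was the genotype by assay interaction in 1 model over the 18 libraries, without a heart term. Per the labels, libraries with the same number are 1 heart, so the numbers pair the assays. Over 6082 genes, deviations from the genotype mean correlated at 0.237 to 0.575 within a heart (median 0.424), against a median of -0.0809 between hearts. Whole reads were recovered for 100% of footprint values (tolerance 0.01), and edgeR 4.0.16 and DESeq2 1.42.0, run on them as alternatives, called 2 and 6 genes, beside other pseudocounts, filters and scalings, each heart left out and the heart as block. Replicate libraries of a group differed by more than sampling noise. The lowest chi-square per degree of freedom was 27.4 in KO footprints, 30.3 in WT footprints and 7.17 in WT RNA. In KO RNA it was 6.05, a value that rests on the step that could not be checked.

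The members and gene lists were chosen with earlier results of these data known. Named in the text are the 9 genes, up to 4 genes per list and comparison with the smallest adjusted p, and the 5 genes of each assay most like the members by Pearson r among those with a mean of at least 50. A few genes that this rule names are not reported here. Promoter sequences are RefSeq's on GRCm38.p6, found for 7 of the 9 genes.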

Additional observations from a re-analysis of the deposited data

Results flagged for a closer look

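Among 54 groups (9 genes, 2 genotypes and 3 measures), 4 had a heart whose gap to the nearest other heart was large for the range of its group, and chance alone marks about 1 in 20 groups. Fos RNA in WT heart 2 was 106 normalized reads, with the next WT heart at 25.3. Fos footprints in the same heart were 169 normalized reads, with the next WT heart at 32.7. Egr1 RNA in KO heart 8 was 1023 normalized reads, with the next KO heart at 355. Dusp1 efficiency in KO heart 8 was 1.98, with the next KO heart at 1.36.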

How the results depend on the processing

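The 27 log2 fold changes (9 genes in 3 measures) were recomputed to 432 alternative values, of which 393 left direction and call as they were, 1 lost a call, 8 gained one and 30 changed sign. The cause of these changes was not tested. Genes past the RNA test in the list of 9 numbered 3 to 5 when 1 heart was left out. Over all genes the footprint count of 2 became 0 without a filter on low values and 6 with DESeq2, and 0 to 3 when 1 heart was left out. In efficiency the count of 1 became 2 at a minimum mean of 50 and 0 to 2 when 1 heart was left out. With the heart as replicate block, which pairs the 2 libraries of a heart, 3 passed, and 1852 of all genes against 1434 without it (989 higher and 863 lower); Egr1 and Dusp1 were the only members whose call it changed. After quantile normalization 618 efficiency calls were higher and 691 lower, against 781 and 653. Reversed values were as follows. Ier2 RNA was -4.3e-05 with a pseudocount of 0.5, -0.073 after quantile normalization and -0.13 to 0.11 with 1 heart left out. Ier2 footprints were 0.0055 after quantile normalization, 0.0096 with edgeR, 0.0088 with DESeq2 and -0.24 to 0.17 with 1 heart left out. Ier2 efficiency was 0.080 after quantile normalization and -0.19 to 0.21 with 1 heart left out. With 1 heart left out, Klf6 footprints were -0.058 to 0.13, Egr1 RNA -0.57 to 0.016 and Junb efficiency -0.072 to 0.086, and Junb efficiency was -0.012 with TMM factors. Depth limits Fos most, with 8 RNA reads in 1 library.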
